A study of Homo sapiens with 12 samples.

Results

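The genes described here are 9 members of the PARP family and the PARP9 partner DTX3L, 10 of the 25268 gene symbols listed in RNA profiles of HEK293 cells that overexpressed RBMX. The members were chosen by symbol: PARP9, PARP10, PARP11, PARP12, PARP14 and DTX3L, referred to as the 6 interferon-linked members, and PARP1, PARP2, PARP4 and PARP8, referred to as the 4 other members. HEK293, a human line derived from embryonic kidney, was transfected with a lipid reagent (Lipofectamine) and 2 μg of either the pCMV6-HIS-HA-RBMX plasmid, which drives RBMX with an HA and a histidine tag from a viral promoter, or the mock empty vector. The empty-vector cells served as control, carried in sample titles as WT and in the value columns as HIS, so that both arms took up plasmid DNA and the reagent, and no untransfected cells were compared. RNA was taken 48 h later in 3 biological replicates per vector, which are called cultures here. Each lysate was run on a sucrose gradient, which separates free mRNA from mRNA loaded with several ribosomes. The polysomal RNA came from the heavy fractions and the total RNA from a pool of all fractions of the same gradient. The transfection was transient, and every library averages the cells of a dish that took up the plasmid and those that did not. In such bulk RNA a gene made by more cells and a gene made at a higher level per cell cannot be told apart.

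ADP-ribosyltransferases of the PARP family transfer ADP-ribose from NAD+ to proteins and nucleic acids. PARP1 and PARP2 build poly(ADP-ribose) chains at broken DNA and are made in almost all cells, whereas PARP10, PARP11, PARP12 and PARP14 attach single ADP-ribose units and belong to the genes that type I interferon switches on in many cell types. PARP9 forms a complex with the E3 ubiquitin ligase DTX3L, and both genes are read from one bidirectional promoter. Many genes that respond to interferon carry the interferon-stimulated response element in their promoter, whose core is a repeated GAAA.

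The repeat GAAANNGAAA was searched on both strands of the RefSeq promoter windows (GRCh38.p14, 250 bases before to 50 after each start), because it bears on the link to interferon. The search used no expression values, but the members and gene lists were chosen with earlier results of these data known. The shares are therefore a description. The repeat lay in 4 of the 5 interferon-linked members that had an entry (PARP9 in 1 of its 2 promoters, PARP12, PARP14 and DTX3L) and in 0 of 3 other members (PARP1, PARP2 and PARP8). PARP11 had no match in its window, and PARP4 and PARP10 had no entry. Over all genes with such a window 4.38% held a match, over the tested genes found among them 3.81%, and over 32 interferon-stimulated genes 65.6%. The 4 matches follow with 10 bases on either side, 5′ to 3′ on the strand of the gene, with the repeat in capitals.
PARP9: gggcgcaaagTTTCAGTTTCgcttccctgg
DTX3L: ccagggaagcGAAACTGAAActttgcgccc
PARP12: ccggggccgcTTTCGGTTTCgtttcccgcc
PARP14: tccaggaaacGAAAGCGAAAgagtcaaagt
The first and second lines are the same 30 bases read from opposite strands (chr3:122564322-122564351), since the nearer of the 2 annotated PARP9 starts lies 38 bases from the DTX3L start. The other PARP9 start lies 446 bases from it, and its promoter is the one without a match. Counted from each start, the repeat lay at bases -41 to -32 for PARP9 and at bases -6 to 3 for DTX3L. The PARP12 window is at chr7:140062942-140062971 on the minus strand, with the repeat at bases -10 to -1, and that of PARP14 at chr3:122680800-122680829 on the plus strand, with the repeat at bases -29 to -20. These are matches of letters in a window and do not show that a factor was bound there.

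The authors deposited expression as FPKM, a count of fragments divided by transcript length and by the mapped fragments of the library, so levels of different genes can be set side by side per length. RBMX itself was checked first. In total RNA it measured 147, 145 and 108 FPKM in control cultures 1 to 3 and 1731, 2073 and 1460 FPKM in RBMX cultures 1 to 3, and the polysomal libraries had 87.4 to 148 and 1072 to 1328 FPKM. All 10 HEK293 markers were at a mean of at least 1 FPKM (summed 463 and 427 FPKM in total and polysomal RNA of control culture 3, and 875 to 1015 FPKM in the other libraries), while 0 of 5 leukocyte, 1 of 5 fibroblast and 0 of 4 endothelial markers reached that level, with summed levels of 0.216 to 0.913, 4.05 to 9.49 and 0.253 to 0.488 FPKM. The leukocyte sum, under 1 FPKM in every library, was 0.350 to 0.498 FPKM in control and 0.756 to 0.913 FPKM in RBMX total RNA, and 0.216 to 0.393 against 0.534 to 0.739 FPKM in polysomal RNA, without overlap. In total RNA CD74 alone was at 0.126 to 0.214 FPKM in control and 0.447 to 0.589 FPKM in RBMX libraries. PTPRC and CD3E did not exceed 0.0694 FPKM in any library, and the leukocyte markers were too low to be tested. Of the 2 fibroblast markers tested, 1 was higher in RBMX libraries at an unadjusted p under 0.05 by limma in each fraction and 0 passed the adjusted threshold. This was COL1A1, at 3.14 to 5.97 FPKM in control and 5.47 to 8.61 FPKM in RBMX libraries, whereas COL1A2, COL3A1 and DCN did not exceed 0.0566 FPKM in any library. One culture of each vector stood apart. Control culture 3 had 2.03% of 14168 genes at or under 0.5 times the mean of control cultures 1 and 2 in total and 3.86% in polysomal RNA. PARP1, at 0.288 and 0.268 times, was among them. At the other end, 1.16% and 2.04% of genes were at 2 times that mean or more, and the median ratio was 1.00 in both fractions. RBMX culture 3 was below the mean of RBMX cultures 1 and 2 in 40 of 40 interferon-stimulated genes in both fractions, with median ratios of 0.315 in total and 0.348 in polysomal RNA. Control culture 3 was likewise below the mean of control cultures 1 and 2 in 37 and 35 of these 40 genes, with median ratios of 0.614 and 0.604. The part of these cultures in the results below was measured by leaving them out, a choice made after seeing the data.

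Relative to the empty vector, 5 of the 6 interferon-linked members (PARP9, PARP10, PARP12, PARP14 and DTX3L) were higher in every RBMX library than in any control library of the same fraction. Their mean FPKM was 2.44 to 11.7 times the control mean in total RNA and 2.35 to 13.2 times in polysomal RNA. PARP11, the remaining member of that group, was slightly lower in all RBMX libraries. Of the other members, PARP2 was slightly higher in all RBMX libraries of both fractions, and PARP1, PARP4 and PARP8 overlapped between vectors. No member passed an adjusted p of 0.05 by limma in either fraction when all 3 cultures were used.

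**Figure D1:**
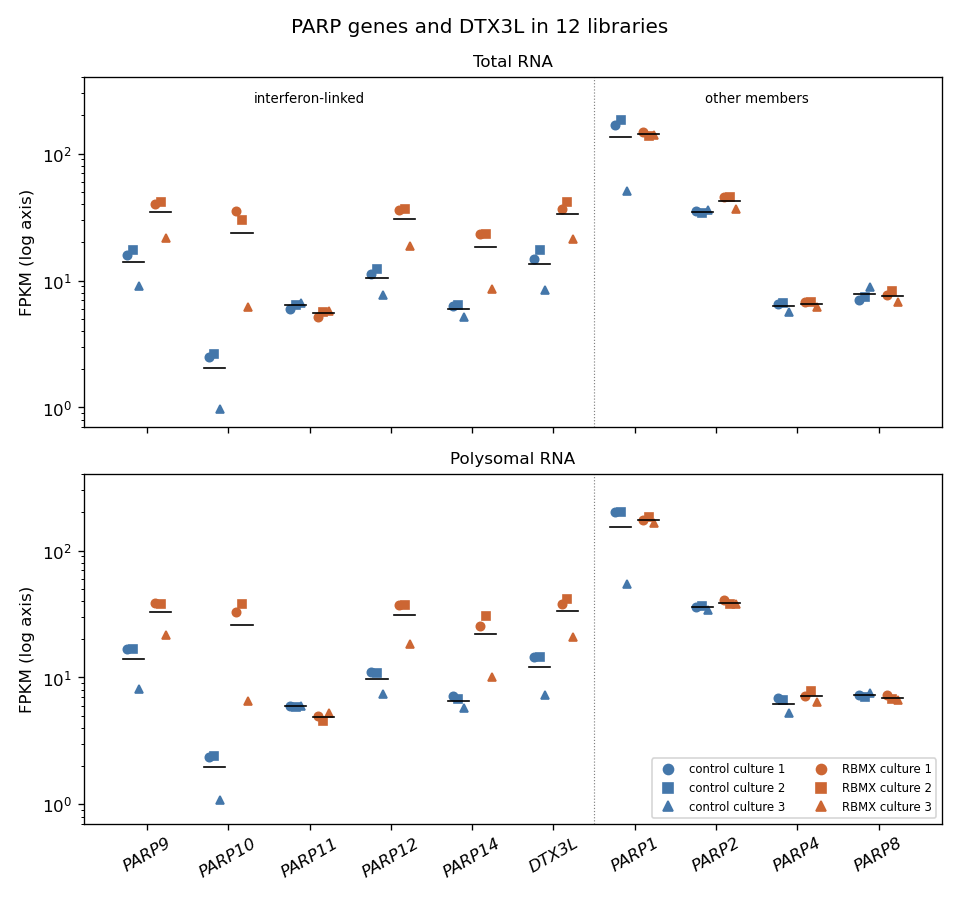
FPKM of the 10 members (log axis) in total RNA (top) and polysomal RNA (bottom); each point is 1 library, its shape the culture, and the black line the mean of 3. PARP9, PARP10, PARP12, PARP14 and DTX3L lie higher in all RBMX libraries than in the controls, with culture 3 lowest under both vectors, while PARP1 is low only in control culture 3 (50.7 and 54.2 FPKM).

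PARP9, which has macrodomains that bind ADP-ribose but little transferase activity of its own, measured 15.8, 17.4 and 9.00 FPKM in the total RNA of control cultures 1 to 3 and 39.8, 41.8 and 21.7 FPKM in RBMX cultures 1 to 3. The polysomal values were 16.8, 16.7 and 8.10 FPKM against 38.3, 38.1 and 21.6 FPKM. Culture 3 was the lowest under both vectors, and even the lowest RBMX library stood above the highest control. On the log2(FPKM + 1) scale used for all tests, the difference was 1.22 (SE 0.34, 95% confidence interval 0.37 to 2.08) in total RNA and 1.20 (SE 0.36) in polysomal RNA, with limma adjusted p = 0.189 and 0.400.

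DTX3L, the ligase partner of PARP9, followed it closely. Its total RNA values were 14.7, 17.4 and 8.45 FPKM in control cultures 1 to 3 and 36.9, 41.2 and 21.4 FPKM in RBMX cultures 1 to 3. In polysomal RNA these were 14.5, 14.5 and 7.22 FPKM against 37.9, 41.4 and 20.9 FPKM. The vectors did not overlap in either fraction, and the log2 differences were 1.24 (SE 0.35) and 1.40 (SE 0.37), limma adjusted p = 0.188 and 0.400. Within a library the ratio of DTX3L to PARP9 stayed between 0.859 and 1.09 over all 12 libraries. The gene bodies of this head-to-head pair overlap by 340 bases (GENCODE v29, GRCh38: PARP9 at chr3:122527924-122564577, minus strand; DTX3L at chr3:122564238-122575203, plus strand). No source used here says that strand was used in counting, so fragments from the overlap could have been given to either gene.

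PARP10, a mono-ADP-ribosyltransferase, had the widest difference of the members and the lowest control level. It measured 2.50, 2.62 and 0.974 FPKM in the total RNA of control cultures 1 to 3 and 35.2, 30.0 and 6.15 FPKM in RBMX cultures 1 to 3. The polysomal values were 2.37, 2.41 and 1.08 FPKM against 32.8, 37.9 and 6.56 FPKM. RBMX culture 3 reached only 0.189 and 0.186 times the mean of RBMX cultures 1 and 2, yet remained above all controls. The log2 difference was 2.77 (SE 0.68, 95% confidence interval 1.08 to 4.47) in total RNA and 2.90 (SE 0.67) in polysomal RNA, with limma adjusted p = 0.176 and 0.400. Adding 1 to values as low as these controls makes the log2 difference smaller, and with 0.1 added it was 3.26 and 3.38. The difference also averages logs, so it is not the log2 of the ratio of the mean FPKM, 11.7 and 13.2. The gene body overlaps those of GRINA and SPATC1, both of which are in the table.

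PARP12, a mono-ADP-ribosyltransferase with RNA-binding zinc fingers, measured 11.3, 12.3 and 7.72 FPKM in the total RNA of control cultures 1 to 3 and 36.1, 36.9 and 18.7 FPKM in RBMX cultures 1 to 3. In polysomal RNA it measured 11.0, 10.9 and 7.37 FPKM against 37.1, 37.5 and 18.2 FPKM. The groups did not overlap. Its log2 differences of 1.42 (SE 0.31) and 1.52 (SE 0.32) had the lowest unadjusted p of all members in both fractions, 0.00454 and 0.00401 by limma, and adjusted p = 0.174 and 0.400.

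PARP14, a large mono-ADP-ribosyltransferase with macrodomains, was the least abundant of the 5 in RBMX total RNA on the mean. Its total RNA values were 6.25, 6.45 and 5.20 FPKM in control cultures 1 to 3 and 23.3, 23.3 and 8.53 FPKM in RBMX cultures 1 to 3. The polysomal values were 7.20, 6.73 and 5.77 FPKM against 25.3, 30.3 and 10.0 FPKM. RBMX culture 3 lay just above the controls, and the other RBMX cultures far above them. The log2 differences were 1.36 (SE 0.39) and 1.47 (SE 0.41), limma adjusted p = 0.189 and 0.400.

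PARP11, a mono-ADP-ribosyltransferase found at the nuclear envelope, did not share this pattern although it is grouped with the interferon-linked members. It measured 6.01, 6.41 and 6.67 FPKM in the total RNA of control cultures 1 to 3 and 5.12, 5.68 and 5.76 FPKM in RBMX cultures 1 to 3. In polysomal RNA it measured 5.93, 5.83 and 5.99 FPKM against 4.98, 4.52 and 5.20 FPKM. All RBMX libraries were below all controls of their fraction, at 86.8% and 82.8% of the control mean. The log2 differences of -0.18 (SE 0.070) and -0.23 (SE 0.072) had limma adjusted p = 0.264 and 0.400. Culture 3 of either vector was not low for this gene.

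PARP1, the main poly(ADP-ribose) polymerase of the DNA damage response, was the most abundant member in every library. Its total RNA values were 168, 185 and 50.7 FPKM in control cultures 1 to 3 and 149, 138 and 140 FPKM in RBMX cultures 1 to 3. The polysomal values were 202, 203 and 54.2 FPKM against 174, 182 and 164 FPKM. Apart from control culture 3, the controls were above all RBMX libraries of their fraction. With that culture included the log2 differences were 0.28 (SE 0.51, 95% confidence interval -0.98 to 1.55) and 0.41 (SE 0.54, -0.94 to 1.75), limma adjusted p = 0.784 and 0.752. Without control replicate 3 they turned to -0.31 and -0.22, so the sign of the PARP1 difference rested on 1 culture. PARP1 and PARP4 have pseudogene copies that are not used here, and their values are uncertain where fragments match both.

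PARP2, the second DNA-damage polymerase, measured 35.0, 33.8 and 35.7 FPKM in the total RNA of control cultures 1 to 3 and 45.8, 45.6 and 36.6 FPKM in RBMX cultures 1 to 3. The polysomal values were 36.2, 36.7 and 34.2 FPKM against 40.5, 38.2 and 37.6 FPKM. The groups did not overlap, but the gap was under 1 FPKM in both fractions. The log2 differences were 0.28 (SE 0.10) and 0.12 (SE 0.065), limma adjusted p = 0.238 and 0.496. PARP4, the PARP of the cytoplasmic vault particle, ranged from 5.65 to 6.69 FPKM in control and from 6.20 to 6.74 FPKM in RBMX total RNA, and from 5.23 to 6.84 and 6.46 to 7.79 FPKM in polysomal RNA. PARP8, a less studied mono-ADP-ribosyltransferase, ranged from 7.01 to 8.82 FPKM in control and from 6.72 to 8.23 FPKM in RBMX total RNA, and from 6.99 to 7.59 and 6.65 to 7.27 FPKM in polysomal RNA. Both overlapped between vectors. The 95% confidence intervals of their log2 differences in total RNA were -0.15 to 0.25 for PARP4 and -0.31 to 0.23 for PARP8, and in polysomal RNA -0.12 to 0.48 and -0.24 to 0.11.

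**Figure D2:**
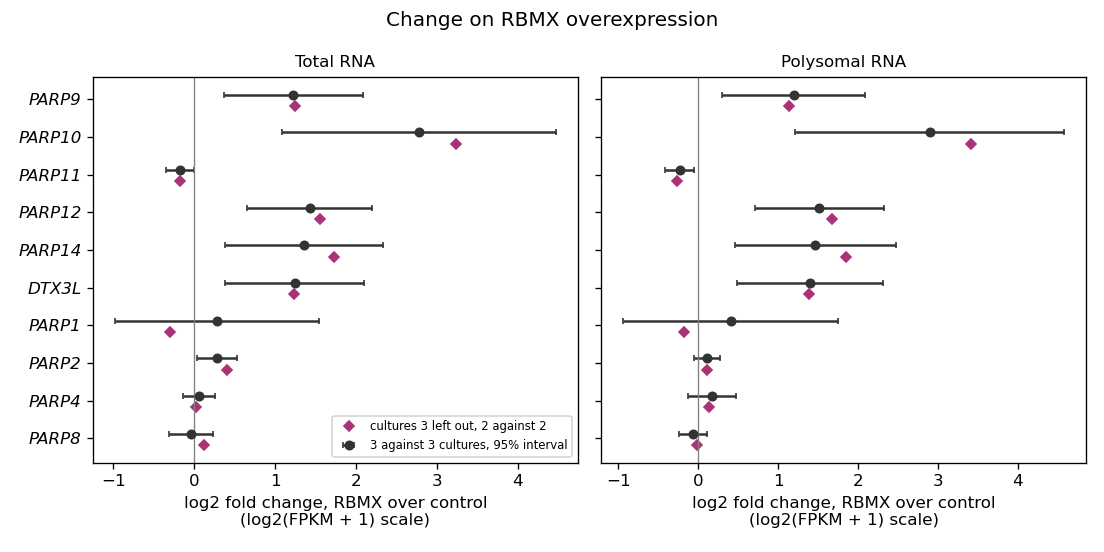
Log2 fold change of RBMX over control on the log2(FPKM + 1) scale in total (left) and polysomal RNA (right); circles are 3 against 3 cultures with 95% confidence intervals and diamonds are 2 against 2, with cultures 3 of both vectors left out. PARP10 lies farthest to the right (2.77 and 2.90), and PARP1 crosses 0 when cultures 3 are left out (-0.30 and -0.18).

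The members were set against the background of all 14676 genes tested. With limma 0 of 10 members passed an adjusted p of 0.05 in total RNA, where 0.164% of all genes did, and 0 of 10 in polysomal RNA, where 0.0477% did. At an unadjusted p under 0.05, 6 members were higher in total RNA (7.93% of all genes) and 1 was lower (10.8%). In polysomal RNA 5 were higher (5.16%) and 1 was lower (6.53%). A log2 difference of at least 1 was seen for 5 members in either fraction, compared with 1.82% of all genes in total and 1.75% in polysomal RNA. Groups that did not overlap were counted for 6 members in the higher direction in each fraction (11.9% and 10.0% of all genes) and for 1, PARP11, in the lower direction (15.4% and 12.5%). The share of members was above the background for higher values and near it for lower ones. No conclusion is drawn from that, because the members were chosen with results of these data known. With 3 against 3 libraries the two-sided exact permutation test cannot give a p below 0.1, and each of these 7 members had that value in both fractions.

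The calls depended on culture 3. Without RBMX replicate 3 alone, 2 members passed in total RNA with limma, PARP10 (3.52, adjusted p = 0.0258) and PARP14 (1.81, adjusted p = 0.00658), where 1.21% of all genes passed. In polysomal RNA 3 passed, PARP10 (3.65, adjusted p = 0.0180), PARP12 (1.85, adjusted p = 0.0467) and PARP14 (1.93, adjusted p = 0.0157), against 0.859% of all genes. With cultures 3 of both vectors left out, PARP9, PARP10, PARP12, PARP14, DTX3L and PARP2 rose in total RNA, 6 members against 2.09% of all genes, with limma adjusted p from 0.00369 for PARP14 to 0.0499 for PARP2. In polysomal RNA the same members apart from PARP2 passed, 5 against 2.37% of all genes, with adjusted p from 0.00378 for PARP12 to 0.0242 for PARP14. The differences of PARP9 and DTX3L hardly moved in that fit (1.25 and 1.24 in total RNA), while PARP10 went to 3.23 and PARP14 to 1.72. These fits have 2 cultures per vector.

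The level order of the members showed the same contrast. In control total RNA PARP1 (mean 134.6 ± 73.1 FPKM, SD, n = 3) was followed by PARP2 (34.9 ± 0.964), and neither overlapped its neighbour. PARP9 (14.1 ± 4.48), DTX3L (13.5 ± 4.58), PARP12 (10.4 ± 2.41) and PARP8 (7.77 ± 0.939) came next, each overlapping the next in that order. PARP11 (6.36 ± 0.335), PARP4 (6.29 ± 0.565) and PARP14 (5.96 ± 0.673) also overlapped each other in turn, and PARP10 (2.03 ± 0.919) was below all of them. In RBMX total RNA PARP1 (142 ± 5.72) again stood alone. PARP2 (42.6 ± 5.27), PARP9 (34.4 ± 11.1), DTX3L (33.2 ± 10.4), PARP12 (30.6 ± 10.3), PARP10 (23.8 ± 15.5) and PARP14 (18.4 ± 8.51) then formed one overlapping series, so PARP2 no longer separated from PARP9. PARP8 (7.52 ± 0.759) and PARP4 (6.55 ± 0.310) overlapped each other and PARP11 (5.52 ± 0.346) was last. PARP10 was thus in the tenth place in control and the sixth in RBMX cells, in polysomal RNA as well. PARP11 was last in RBMX cells in both fractions, and in control cells it was the seventh in total RNA, overlapping PARP4, and the ninth in polysomal RNA. Together the 6 interferon-linked members made up 18.4 to 27.4% of the summed FPKM of all members in control and 27.7 to 47.4% in RBMX libraries.

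To set the interferon-linked against the other members within each library, the mean log2(FPKM + 1) of the 4 was taken from that of the 6. In total RNA this contrast was -1.43, -1.38 and -1.52 in control cultures 1 to 3 and -0.0072, 0.022 and -0.85 in RBMX cultures 1 to 3. In polysomal RNA it was -1.51 in all 3 control cultures and -0.026, 0.052 and -0.91 in the RBMX cultures. The groups did not overlap, and RBMX culture 3 lay between the others and the controls. The mean difference between vectors was 1.16 in total and 1.22 in polysomal RNA, and 1.21 and 1.30 with PARP1 left out of the other members. No test is given, because the members were chosen with results of these data known. In control culture 3 both PARP1 and 5 of the interferon-linked members were below the other controls, and the contrast there was close to that of the others. With PARP1 left out it stood apart, at -1.04 in total and -0.97 in polysomal RNA against -0.53 to -0.42 in control cultures 1 and 2. The summed FPKM of the 6 moved with that of 40 interferon-stimulated genes. In total RNA the 40 genes summed to 2244, 2345 and 1722 FPKM in control cultures 1 to 3 and to 11701, 12240 and 4033 FPKM in RBMX cultures 1 to 3.

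**Figure D3:**
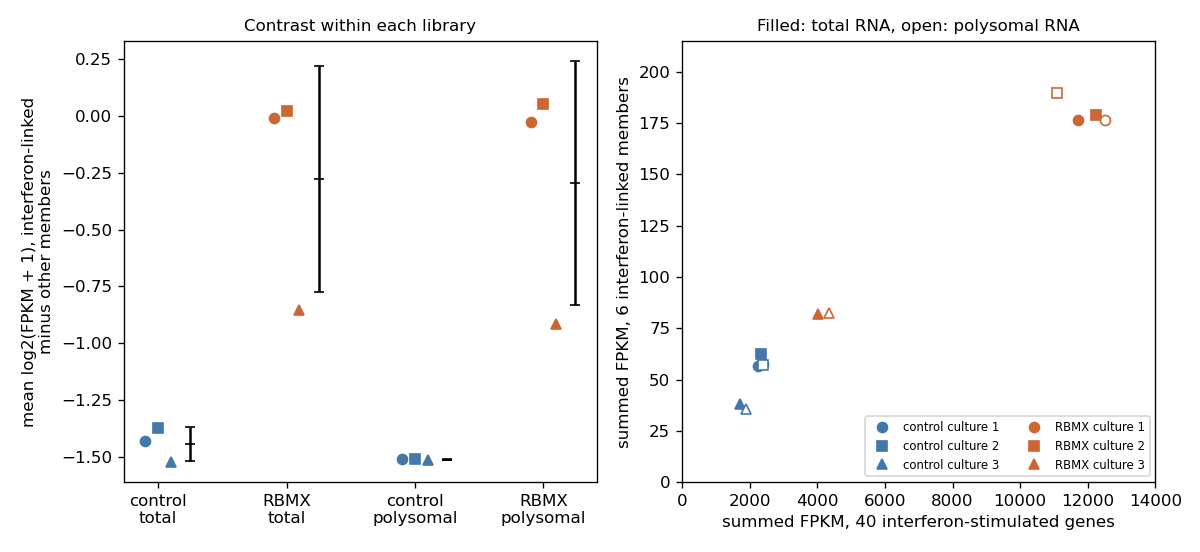
Left, mean log2(FPKM + 1) of the 6 interferon-linked minus that of the 4 other members in each library, with mean ± SD of 3 as bars; right, summed FPKM of the 6 interferon-linked members against that of 40 interferon-stimulated genes in each library. RBMX cultures 1 and 2 lie at the top in both panels, and RBMX culture 3 (-0.85 and -0.91 on the left) lies between them and the controls.

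All 40 interferon-stimulated genes were higher in every RBMX library than in any control library of the same fraction, with median log2 differences of 2.03 in total and 2.04 in polysomal RNA, where the median of all genes tested was 0. The 5 interferon-linked members that were higher thus lay in the lower part of their range, 0.91 to 3.64 and 0.70 to 3.76, apart from PARP10. By limma 0 of 40 passed an adjusted p of 0.05, while 40 and 38 were higher at an unadjusted p under 0.05. Of all genes tested, 7.93% and 5.16% were higher at that p, and 11.9% and 10.0% were higher without overlap. The list of 40 was chosen with earlier results of these data known, so its counts only describe it. OAS2, a sensor of double-stranded RNA, was 3.64 higher (adjusted p = 0.176) and 3.76 in polysomal RNA (adjusted p = 0.400). RSAD2, which encodes the antiviral enzyme viperin, was 3.32 and 3.48 higher. The genes most like DTX3L over the 12 libraries were PARP9 (Pearson r = 0.996), OAS1 (0.995), IFIT3 (0.994), SP110 (0.993) and IFIT1 (0.993) among 14675 genes. PARP12 stood at rank 17 of that order, PARP10 at 56, PARP14 at 144 and PARP11 at 13568 with r = -0.78. The genes most like PARP1 were USP5, ANXA6, KPNB1, GPI and APEH, each with r = 0.995. These correlations describe 12 libraries that share cultures and vectors, and PARP1 was lowest in the libraries of control culture 3.

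The interferon-linked members kept different proportions to each other. PARP12 was at 0.652 to 0.985 times and PARP14 at 0.370 to 0.796 times the PARP9 level over the 12 libraries. In total RNA the PARP12 ratio was 0.713, 0.707 and 0.859 in control cultures 1 to 3 and 0.907, 0.883 and 0.861 in RBMX cultures 1 to 3, without overlap, whereas in polysomal RNA the vectors overlapped. The PARP14 ratio overlapped in both fractions. The ratio of PARP10 to PARP9 was 0.108 to 0.158 in the 6 control libraries, 0.717 to 0.995 in RBMX cultures 1 and 2, and 0.284 and 0.304 in RBMX culture 3. It therefore did not overlap between vectors.

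**Figure D4:**
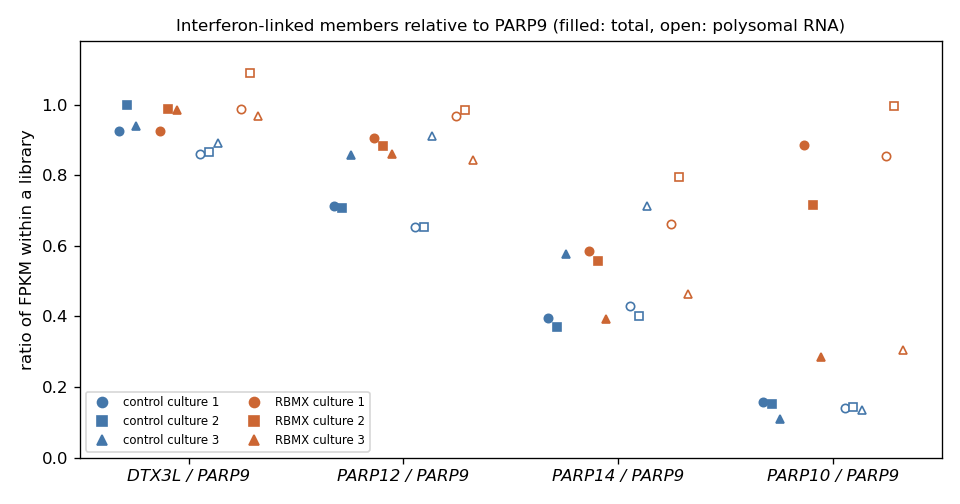
Ratio of the FPKM of DTX3L, PARP12, PARP14 and PARP10 to that of PARP9 within each library; each point is 1 library (filled total, open polysomal RNA) and its shape the culture. DTX3L stays between 0.859 and 1.09 times PARP9 in all libraries, while PARP10 goes from 0.108 to 0.158 in control to 0.284 to 0.995 in RBMX libraries.

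No member showed a detectable difference of the RBMX effect between fractions. The polysomal minus the total log2 difference ran from -0.16 for PARP2 (95% confidence interval -0.43 to 0.11) to 0.16 for DTX3L (-1.04 to 1.36). By limma 0 of 10 members passed an adjusted p of 0.05, where 0.0204% of all genes did, and 0 had an unadjusted p under 0.05, where 0.600% did. Without the pairing of the fractions of a culture the intervals were wide for the interferon-linked members, -2.16 to 2.40 for PARP10 and -1.21 to 1.15 for PARP9. With the culture as a block the same differences had intervals of -0.18 to 0.43 for PARP10, -0.22 to 0.16 for PARP9, -0.055 to 0.24 for PARP12, -0.095 to 0.32 for PARP14 and -0.029 to 0.35 for DTX3L. In that paired fit the limma adjusted p was 1.00 for every member. In control cells the polysomal and total levels of a member differed by -0.16 (DTX3L) to 0.16 (PARP1) on the log2 scale. Without the pairing, no member passed an adjusted p of 0.05 by limma (0.0818% of all genes) or an unadjusted p under 0.05 (8.04%). With the culture as a block, PARP1 alone had an unadjusted p under 0.05 by limma, as did 21.0% of all genes. PARP11 was lower in all polysomal than in all total control libraries (-0.09, SE 0.064, limma adjusted p = 0.798), as were 7.31% of all genes.

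Of the other 8 PARP family genes, 7 were tested. By limma 0 of these had an unadjusted p under 0.05 in either fraction, against 18.8% of all genes in total and 11.7% in polysomal RNA. Their median log2 difference was -0.0064 in total and 0.12 in polysomal RNA. The widest was that of ZC3HAV1, the zinc-finger antiviral protein also known as PARP13, with 16.3, 18.3 and 9.70 FPKM in the total RNA of control cultures 1 to 3 and 24.5, 27.6 and 17.5 FPKM in RBMX cultures 1 to 3. Its RBMX culture 3 overlapped the controls, and the log2 differences were 0.64 (SE 0.28, limma adjusted p = 0.291) and 0.71 (SE 0.33, adjusted p = 0.441). PARP6 came second in total RNA (0.27) and TIPARP in polysomal RNA (0.25). PARP15 did not exceed 0.0676 FPKM in any library and was not tested.

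The enzymes that remove or read ADP-ribose numbered 11, of which 10 were tested. None passed an adjusted p of 0.05. By limma 3 in total and 2 in polysomal RNA were higher at an unadjusted p under 0.05, as were 7.93% and 5.16% of all genes. ADPRHL2 (also ADPRS), the hydrolase that cleaves ADP-ribose from serine, measured 29.7, 30.8 and 29.6 FPKM in control and 46.9, 45.6 and 37.2 FPKM in RBMX total RNA. It did not overlap between vectors, and its log2 differences were 0.50 (SE 0.098, adjusted p = 0.170) and 0.43 (SE 0.10, adjusted p = 0.400). ADPRHL1 was 0.28 higher in total RNA (adjusted p = 0.176), and OARD1, which removes ADP-ribose from glutamate, differed by -0.28 in polysomal RNA (adjusted p = 0.514). Of 13 genes listed as partners of PARP1, some of them in base excision repair or NAD+ supply, 0 passed an adjusted p of 0.05 by limma. An unadjusted p under 0.05 in either direction was seen for 2 in total and 1 in polysomal RNA, and for 18.8% and 11.7% of all genes. NAMPT, the rate-limiting enzyme of NAD+ salvage, had log2 differences of 0.48 and 0.60 (limma adjusted p = 0.339 and 0.475). The DNA ligase LIG3 differed by 0.33 in polysomal RNA (adjusted p = 0.624). The medians of these lists, 0.036 and 0.018 for the ADP-ribose enzymes and 0.054 and -0.0082 for the PARP1 partners, were near the 0 of all genes, against 1.30 and 1.43 for the interferon-linked members.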

How the data were processed

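Total and polysomal RNA of 6 transfected HEK293 cultures gave 12 TruSeq libraries, each from 500 ng of RNA. The authors deposited 1 FPKM value per gene symbol and library. Per the labels, CASAVA 1.8, TopHat2 2.0.13, Cufflinks 2.2.1 and Cuffnorm were used with build hg19. Their parameters, the annotation and any scaling between libraries are not given in the sources used here, and the hg38 count pipeline of the methods text is another one. Read counts and hence absolute depth are unknown, so no detection limit is given. The smallest FPKM steps gave no usable relative depth.

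FPKM values are not counts, so log2(FPKM + 1) was tested with limma 3.58.1 (R 4.3.3, eBayes with trend) on 14676 genes, those whose FPKM averaged 0.5 or more over the 12 libraries. All 10 members pass this filter. P-values were adjusted by Benjamini-Hochberg over all these genes, with a threshold of 0.05. Each fraction used its own 6 libraries, the difference between fractions all 12, and polysomal against total RNA the 6 control libraries. The fits were tested on simulated data whose noise was independent between libraries. Those data held no pairing of fractions and no culture that stood apart. The methods call the replicates biological triplicates and say no more of their origin. The p-values therefore set a difference against the spread between these samples only, and fits without a block treat the libraries as independent. Figures used Python 3.11.15 and matplotlib 3.10.9.

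The members and gene lists were chosen with earlier results of these data known. Every member is named whatever its value. From each context list the members past the threshold and the 2 with the largest change per fraction are named, with the 5 genes most like DTX3L and the 5 most like PARP1. One result covered here is not reported. Total and polysomal RNA of a culture came from one gradient, which pairs them, and across genes the departures of such a pair from their group means correlated at 0.605, 0.686 and 0.835 in control cultures 1 to 3 and at 0.222, 0.0198 and 0.654 in RBMX cultures 1 to 3.

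Promoter sequences and positions came from GRCh38 and were matched by symbol, and no coordinate was moved between builds. The settings varied were the pseudocount (0.1), the minimum mean (0.1, 1 or none), the scaling (by median ratios, or by quantiles), the eBayes trend (none), the block (replicate or culture), a joint fit of all 12 libraries, and the leaving out of single replicates. Leaving out cultures 3 of both vectors, and PARP1 from the contrast, was chosen after seeing the data.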

Additional observations from a re-analysis of the deposited data

How the results depend on the processing

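The 5 interferon-linked members that were higher (PARP9, PARP10, PARP12, PARP14 and DTX3L), as well as PARP2, kept a positive difference, and PARP11 a negative one, under all 16 alternatives in each fraction. The count of members past the adjusted threshold, 0 in both fractions with limma, went to 6 in total and 5 in polysomal RNA with cultures 3 of both vectors left out, and ran from 0 to 2 and from 0 to 3 with 1 replicate left out. Under the replicate block 0 members passed, with adjusted p = 0.0531 for DTX3L and 0.0577 for PARP9 in total RNA, and 13 genes in all instead of 24 (3 instead of 7 in polysomal RNA). No source used here says whether control and RBMX cultures of the same number were paired. Across genes their deviations correlated at 0.340, -0.0407 and 0.0229 in total and at -0.171, -0.0056 and 0.0684 in polysomal RNA. In total RNA the ratio of culture 3 to the mean of cultures 1 and 2 was compared between control and RBMX cells. It was alike for PARP9 (0.541 and 0.531) and DTX3L (0.527 and 0.547). It differed for PARP10 (0.380 and 0.189), PARP14 (0.818 and 0.366) and PARP1 (0.288 and 0.978). With the culture as a block, PARP1 alone had an unadjusted p under 0.05 (0.0466 by limma) for polysomal against total RNA in control cells, adjusted p = 0.233. In that fit 21.0% of all genes had an unadjusted p under 0.05. Over all alternatives 13 to 306 genes passed in total and 3 to 348 in polysomal RNA. Differences near 0 changed sign, and apart from the culture left out the cause was not tested. With cultures 3 left out, PARP1 went to -0.30 in total and -0.18 in polysomal RNA, PARP8 to 0.11 in total RNA, and polysomal against total RNA in control cells to 0.014 for PARP9 and 0.020 for PARP4. With quantile normalization the difference between fractions went to 0.0036 for PARP9, and polysomal against total RNA in control cells to 0.019 for PARP10 and 0.0029 for PARP4. With 1 replicate left out, the total RNA difference ran from -0.31 to 0.62 for PARP1, -0.012 to 0.093 for PARP4 and -0.10 to 0.045 for PARP8, and the polysomal one from -0.22 to 0.72 for PARP1. The difference between fractions ran from -0.35 to 0.25 for PARP9, -0.62 to 0.88 for PARP10, -0.22 to 0.43 for PARP12, -0.34 to 0.57 for PARP14, -0.15 to 0.46 for DTX3L, -0.50 to 0.72 for PARP1 and -0.11 to 0.033 for PARP8. Polysomal against total RNA in control cells ran from -0.31 to 0.29 for PARP9, -0.31 to 0.21 for PARP10, -0.27 to 0.088 for PARP12, -0.44 to 0.15 for DTX3L, -0.43 to 0.79 for PARP1, -0.084 to 0.085 for PARP4 and -0.14 to 0.0084 for PARP8. The number of fragments behind each value is unknown, which limits the lowest values (PARP10 in control, about 2 FPKM) most.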
